A study of Mus musculus with 27 samples.

Results

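The genes described here encode the machinery of oxidative phosphorylation, and 105 of the 35975 genes in the deposited tables belong to it. They were chosen by symbol: genes whose symbols start with Nduf, Uqcr, Sdh plus a letter from a to d, Cox4 to Cox8 or Atp5, and the mitochondrially encoded mt-Nd, mt-Co, mt-Cytb and mt-Atp genes. Pseudogenes were left out, and a member had to be listed in the authors' proximal or distal matrix or reach a group mean of 1 CPM (counts scaled to library size) in at least 1 group. Of the 105 members, 92 are encoded in the nucleus and 13 in the mitochondrial genome. The nuclear members were 36 subunits of complex I, 8 Ndufaf assembly factors, 4 subunits of complex II, 4 Sdhaf assembly factors, 8 genes of complex III, 11 ubiquitous subunits of complex IV, 2 tissue-restricted isoforms of complex IV (Cox6b2 and Cox7a1), the supercomplex factor Cox7a2l, 16 ATP synthase genes and 2 further genes named Atp5 in the matrices (Atp5s and Dmac2). The members just inside the level rule had highest group means of 2.78 CPM (Cox6b2) and 4.68 CPM (Sdhaf3), and those just outside were Cox4i2 at 0.958 CPM and Cox8b at 0.720 CPM. All 105 members passed the filter on low counts in every comparison.

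Oxidative phosphorylation takes place at the inner mitochondrial membrane. Complexes I and II pass electrons from nutrients through complex III to complex IV, which reduces oxygen, and complexes I, III and IV pump protons that ATP synthase uses to make ATP. Complex II is encoded wholly in the nucleus, whereas the other complexes are built from subunits of both genomes. Absorptive cells of the colon burn butyrate from bacterial fermentation in their mitochondria.

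The study sequenced polyadenylated RNA of proximal and distal colon segments from mice lacking Foxa1 and Foxa2, forkhead transcription factors of endodermal epithelia. There were 27 libraries from 14 mice of mixed background, each mouse being a separate replicate, and 13 mice gave both segments. The deficient mice (7 proximal and 7 distal libraries) were Villin1-Cre; Foxa1lox/lox; Foxa2lox/lox, aged 9 to 13 months, and 2 of them were labelled female. The controls (7 proximal and 6 distal libraries) were aged 9 to 18 months and all labelled male. Of the control mice, 5 carried Foxa1lox/lox; Foxa2lox/lox without Cre and 2 carried Villin1-Cre, replicate 1 with Foxa1lox/wt; Foxa2lox/wt and replicate 6 with Foxa1lox/lox; Foxa2lox/wt. All mice carried floxed alleles. Villin1-Cre is active in the intestinal epithelium, while the RNA came from whole 1-cm segments, so a lower level in these bulk samples can mean fewer cells of a type or less RNA per cell, which cannot be told apart.

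Estimated counts per library summed to 18472867 to 56744113. Proximally, Foxa1 ranged between 10.1 and 14.5 CPM in deficient mice. It ranged between 50.9 and 70.2 CPM in 6 of 7 controls, while the library labelled control replicate 6 gave 13.9 CPM. In the distal segment that control mouse was at 7.53 CPM, again within the deficient range of 7.15 to 10.6 CPM. Foxa2 separated the genotypes in every library, at 6.05 to 15.7 against 1.24 to 1.75 CPM proximally and 15.4 to 30.1 against 0.323 to 1.38 CPM distally. The mouse labelled deficient replicate 3 was labelled male, but 4 Y-linked genes summed to 3.01 CPM in its proximal and 3.61 CPM in its distal library. The libraries of the mice labelled female gave 2.58 to 6.26 CPM and those of the other mice labelled male 139.4 to 232.0 CPM. Members called for genotype are given with and without control replicate 6 and deficient replicate 3 in the segment of the call. No control was labelled female, so sex was handled by an alternative over mice labelled male, which includes deficient replicate 3. In it Ndufa4, the member called in both segments, had log2 fold changes of 0.61 proximally (adjusted p = 0.0193) and 0.66 distally (adjusted p = 0.0109).

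Levels were compared between genes in the authors' TPM, which scales each transcript's estimate by its length and by the library. In proximal control colon mt-Co1, the catalytic subunit of complex IV, was at 23790 ± 1303 TPM (SD, n = 7) and mt-Co2 at 23190 ± 1547 TPM, which did not differ beyond their spread. The lowest mitochondrially encoded members, mt-Nd3 at 1387 ± 352, mt-Nd5 at 1830 ± 206 and mt-Nd2 at 2281 ± 224 TPM, lay below Cox6a1 and Cox4i1, the highest nuclear ones. The place of mt-Nd3 is uncertain. In these libraries it averaged 138.7 CPM, while Gm28438, a pseudogene that shares nearly all of its sequence, averaged 157.8 CPM. Of the nuclear members, Cox6a1 (complex IV) was at 2456 ± 157 TPM and Cox4i1 (complex IV) at 2331 ± 168 TPM, within a spread of each other. Atp5b, the catalytic beta subunit of ATP synthase, followed at 1781 ± 154 TPM. In complex III Uqcrq was at 1045 ± 157 TPM and Uqcr10 at 1042 ± 93.0 TPM, within a spread of each other. Complex I subunits were lower, led by Ndufa6 at 548 ± 46.7 TPM, and in complex II Sdhb was highest at 392 ± 34.8 TPM. Among isoforms, Cox7a1, the form known from heart and skeletal muscle, was at 139 ± 28.4 TPM against 566 ± 54.9 TPM for the ubiquitous Cox7a2. Cox6b2, known from testis, was at 9.90 ± 0.948 TPM against 922 ± 104 TPM for Cox6b1.

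Loss of Foxa1 and Foxa2 in the proximal colon went with higher counts of Ndufa4 and Cox7a1 and a lower count of mt-Nd4, and 102 of the 105 members did not pass the test. These 3 calls (2.86% of the members) stand against 11.7% of the 16787 genes tested by edgeR's quasi-likelihood test at a Benjamini-Hochberg adjusted p under 0.05. By genome, 2 of 92 nuclear members were higher and 0 lower, and 0 of 13 mitochondrial members were higher and 1 lower, beside 5.52% of all genes higher and 6.17% lower. Every deficient library lay above every control library for 0 members, beside 1.76% of all genes, and below for 0 members, beside 3.01%. The nuclear members had a median log2 fold change, deficient minus control, of 0.07, beside 0.01 for all genes, and 22 of 92 were below 0. For the mitochondrial members the median was -0.23, and 12 of 13 were below 0, beside 48.4% of all genes.

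**Figure D1:**
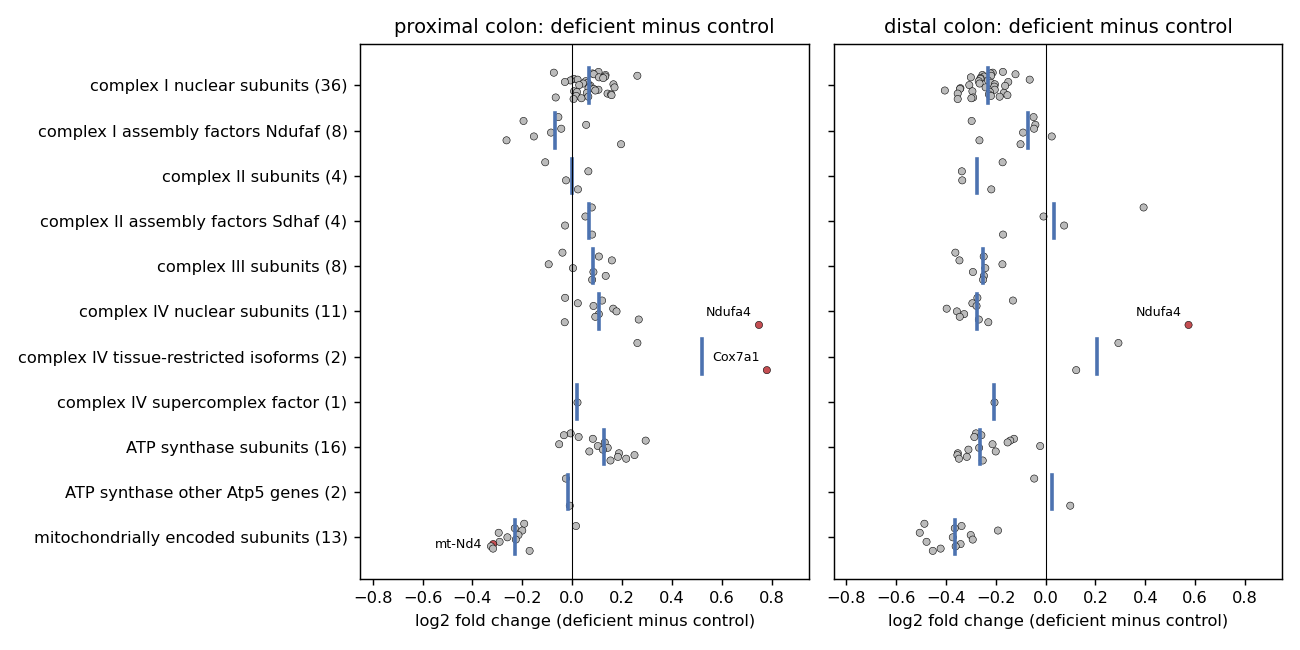
Log2 fold changes of the 105 members (x axis, deficient minus control) in the proximal (left) and distal (right) colon, by role (y axis, number of members in brackets). Each point is a gene, red where the adjusted p was under 0.05, and blue bars are medians; in the distal panel all 36 complex I subunits and all 16 ATP synthase genes lie below 0, with Ndufa4 far to the right of the other complex IV subunits in both panels.

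Ndufa4 (ENSMUSG00000029632.7, chr6:11900292-11907497, minus strand, GRCm38) was first assigned to complex I and is now placed in complex IV. The lowest, median and highest normalised counts were 83.1, 108.7 and 128.1 CPM in proximal controls and 119.1, 186.0 and 223.0 CPM in proximal deficient libraries. Deficient replicates 1 and 2, at 119.1 and 121.4 CPM, lay within the control range, and the other 5 lay above it. The count was 1.68-fold higher, a log2 fold change of 0.75 (SE 0.15, adjusted p = 0.00317 by edgeR's quasi-likelihood test). In the distal colon the values were 76.1, 93.6 and 111.4 CPM in controls and 99.4, 142.3 and 169.3 CPM in deficient libraries. Only deficient replicate 5 fell below the highest distal control. The distal count was 1.49-fold higher (log2 0.57, SE 0.13, adjusted p = 0.0144). Without deficient replicate 3 the log2 fold changes were 0.69 (adjusted p = 0.00885) and 0.57 (adjusted p = 0.0264), and without control replicate 6 they were 0.78 (adjusted p = 0.00352) and 0.63 (adjusted p = 0.0116). With mice of the same number treated as blocks, the distal call was lost (adjusted p = 0.0828), while the log2 fold change stayed at 0.57.

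No other nuclear gene of complex IV was called beside Ndufa4 and Cox7a1. As a share of the summed nuclear CPM, Ndufa4 made up 0.563% to 0.744% in proximal controls and 0.864% to 1.14% in proximal deficient libraries. In the distal colon it made up 0.442% to 0.532% in controls and 0.766% to 1.03% in deficient libraries. The genotypes did not overlap in either segment on this measure, which was chosen after the values were seen and was not tested. Cox7a1 made up 0.0783% to 0.122% and 0.127% to 0.235% proximally, also without overlap, and 0.118% to 0.223% and 0.157% to 0.256% distally, with overlap. How many other members separate on this share was not counted, and on CPM 0 members did in either segment. The distal nuclear sum itself averaged 18980 ± 2481 CPM in controls and 15890 ± 2135 CPM in deficient libraries. Of the 10 other ubiquitous complex IV subunits, 0 passed the test in either segment. AA467197, a close paralogue of Ndufa4 that the symbol rule does not take in and that was picked after its values were seen, averaged 178.1 ± 36.4 and 161.5 ± 84.96 CPM in proximal control and deficient libraries (log2 -0.12, adjusted p = 0.853) and 374.0 ± 84.1 and 300.8 ± 83.7 CPM in distal ones (log2 -0.31, adjusted p = 0.440).

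Cox7a1 (ENSMUSG00000074218.3, chr7:30184144-30186078, plus strand) had a lowest, median and highest count of 11.3, 18.7 and 23.5 CPM in proximal controls and 17.5, 31.4 and 54.6 CPM in deficient libraries. Deficient replicates 1 and 2 lay within the control range, replicate 6 was just above it at 23.6 CPM and replicate 5 was the highest. The count was 1.72-fold higher (log2 0.78, SE 0.24, adjusted p = 0.0417). The call was lost without deficient replicate 3 (log2 0.76, adjusted p = 0.0770), without deficient replicate 5 (0.57, adjusted p = 0.0958) and without control replicate 6 (0.79, adjusted p = 0.0558), and in 16 of 25 alternative analyses in all. In the distal colon Cox7a1 ran from 19.0 to 48.1 CPM in controls and from 21.99 to 45.8 CPM in deficient libraries (log2 0.12, adjusted p = 0.829). Without control replicate 6 the distal log2 fold change was 0.31 (adjusted p = 0.530), with control mice without Cre 0.40 (adjusted p = 0.449) and without deficient replicate 3 0.03 (adjusted p = 0.966). Markers of muscle, in which this isoform is best known, were read beside it: 0 of 10 smooth muscle markers passed the proximal test and all 10 were above 0 (median log2 0.16), with summed levels of 1675 to 3484 CPM in controls and 2173 to 4033 CPM in deficient libraries. Striated muscle markers summed to 14.7 to 27.4 and 15.5 to 43.7 CPM, with 0 of 5 tested past the threshold. Their part in the Cox7a1 result was not tested.

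**Figure D2:**
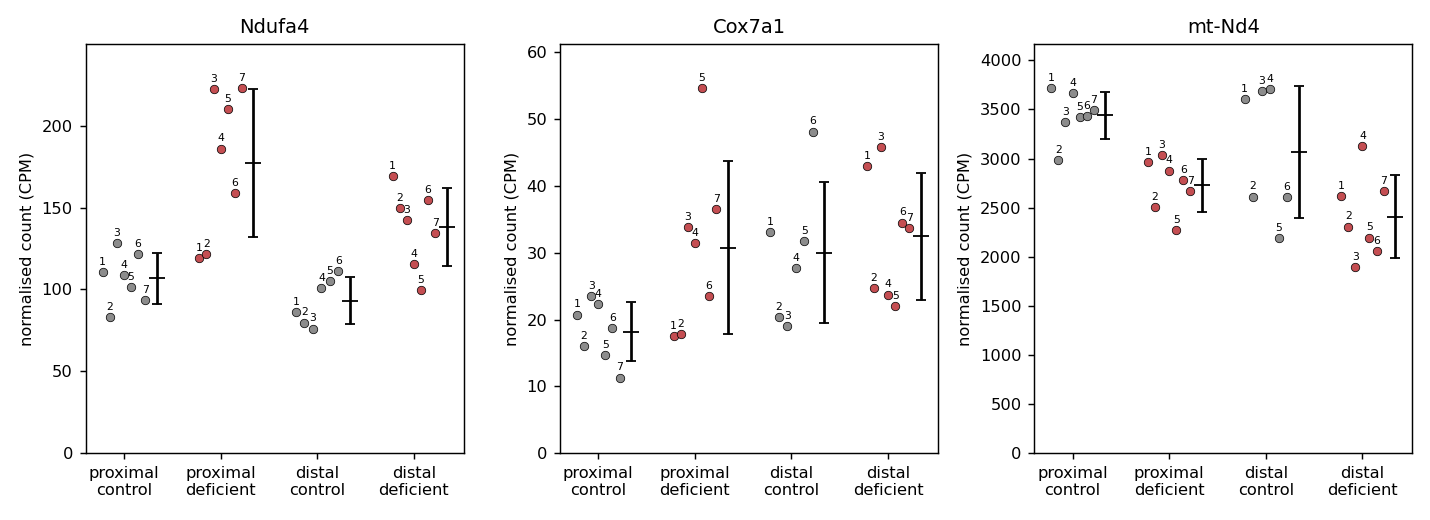
Normalised counts (y axis, CPM) of Ndufa4, Cox7a1 and mt-Nd4 in each library by segment and genotype (x axis), with replicate numbers; bars are mean ± SD of 7 libraries, or 6 for distal controls. Ndufa4 was higher in the deficient groups of both segments, Cox7a1 spread widely among proximal deficient libraries, and mt-Nd4 lay between 2273 and 3034 CPM there.

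The sequences just upstream of the genes that rose with the deletion are shown here, together with that of Atp5g3, which did not pass the test. They are the 80 bases before the first annotated exon, on the gene's strand, from RefSeq (GRCm38.p6). They lie at chr6:11907498-11907577 (minus strand) for Ndufa4, chr7:30184064-30184143 (plus) for Cox7a1 and chr2:73911327-73911406 (minus) for Atp5g3. Capitals mark a match to the estrogen-related receptor motif, which is found in many genes of oxidative metabolism.
Ndufa4: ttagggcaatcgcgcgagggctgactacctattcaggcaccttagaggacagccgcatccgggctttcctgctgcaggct
Cox7a1: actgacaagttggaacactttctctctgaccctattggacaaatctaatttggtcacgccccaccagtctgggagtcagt
Atp5g3: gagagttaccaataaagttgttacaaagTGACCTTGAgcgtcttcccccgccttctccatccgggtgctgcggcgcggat
Neither the Ndufa4 nor the Cox7a1 stretch held the forkhead letters TGTTTAC, the NRF1 letters (GCGCA, any base, GCGC) or the estrogen-related receptor letters TNAAGGTCA on either strand. The matching stretches of Atp5g1 and Cox7a2, which are not shown and were not called for genotype, held none of these letters either. Nor did the stretch read for Atp5g2, which was not called either. That stretch (chr15:102671128-102671207, minus strand) lies inside the annotated gene (chr15:102662864-102672352), so it is not upstream of the first annotated exon. Over the 250 bases upstream of the start, 77 of 92 nuclear members matched the RefSeq table. The NRF1 motif stood in 14 of these 77 (18.2%), against 4.19% of all 26948 other genes in the table and 7.74% of the 12249 that were tested in the proximal colon. The forkhead motif stood in 3 of 77 (3.90%), against 3.54% of other genes, and the estrogen-related receptor motif in 2 of 77 (2.60%), against 1.3%.

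By role, the proximal complexes lay close to the median of all genes. The median log2 fold change was 0.07 over the 36 complex I subunits, 0.00 over the 4 subunits of complex II, 0.08 over complex III, 0.11 over the ubiquitous complex IV subunits and 0.13 over the 16 ATP synthase genes. The 8 Ndufaf factors, which assemble complex I, had a median of -0.07, with Ndufaf7 lowest at -0.26 (adjusted p = 0.0800). Ndufaf7 was called lower without control replicate 6 (-0.31, adjusted p = 0.0278), without deficient replicate 5 (-0.32, adjusted p = 0.0385), with control mice without Cre (-0.32, adjusted p = 0.0450), over mice labelled male (-0.35, adjusted p = 0.0275), over those of at most 13 months (-0.36, adjusted p = 0.0485) and with DESeq2 (-0.27, adjusted p = 0.0458). Its value without deficient replicate 3 was -0.26 (adjusted p = 0.122). The summed levels spread more widely among proximal deficient than among proximal control mice. Summed over the 92 nuclear members, they were 38995 to 46969 TPM in controls, while deficient replicates 1 to 7 gave 38149, 35799, 48124, 48165, 56843, 40708 and 50379 TPM. Replicates 1 and 2 lay below every control and replicates 3, 4, 5 and 7 above every control. Of the latter, replicates 5 and 7 were labelled female and replicate 3 had Y-linked counts as low as theirs. Replicate 4 was labelled male. The part of sex in this spread was not tested. Without deficient replicate 5 the nuclear median turned to -0.03, with 63 of 92 members below 0. Over mice labelled male, who include deficient replicate 3, it was -0.08.

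**Figure D3:**
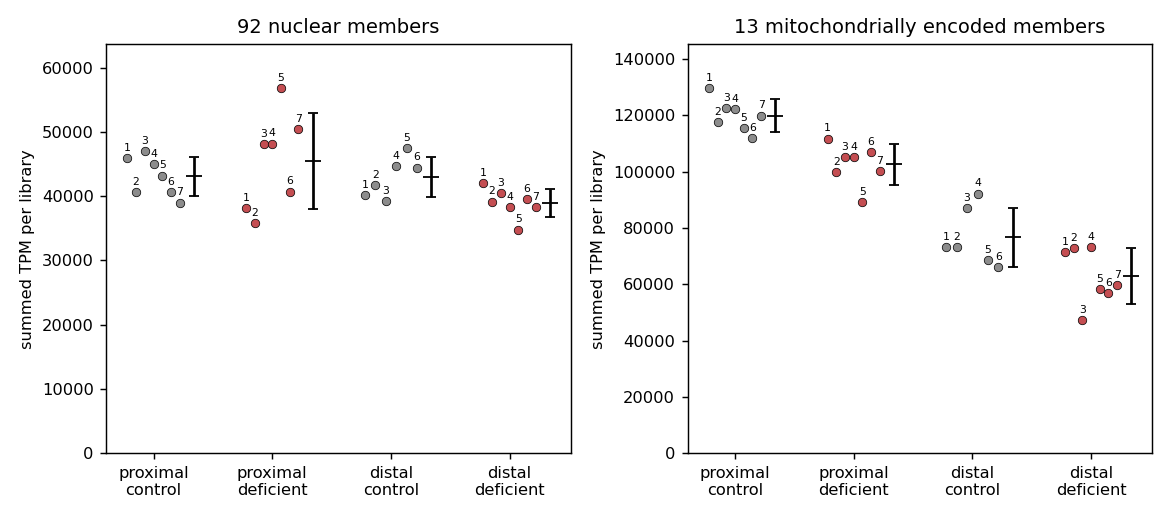
Summed TPM (y axis) of the 92 nuclear (left) and 13 mitochondrially encoded (right) members in each library by segment and genotype (x axis), with replicate numbers and mean ± SD. Proximal deficient libraries spread from 35799 to 56843 TPM for the nuclear members, and their mitochondrial sums, up to 111750 TPM, lay below the lowest proximal control at 111960 TPM.

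The fragment lengths behind the proximal estimates differed as well. Kallisto's effective length subtracts a fragment length from each transcript. For the proximal controls the amount subtracted from long transcripts was 228.0 to 239.4 bases, and for deficient replicates 1 to 7 it was 229.4, 223.5, 219.5, 227.5, 214.6, 245.6 and 220.2 bases. The 4 deficient libraries with the highest nuclear sums had values of 214.6 to 227.5 bases, below every control, and so did replicate 2, which had the lowest sum. With this length as a covariate, an analysis added after the data were seen, the proximal nuclear median was -0.03, Cox7a1 lost its call (log2 0.56, adjusted p = 0.243) and Ndufa4 kept it. The lowest values, 214.6, 219.5 and 220.2 bases, belonged to replicates 5, 3 and 7. Replicates 5 and 7 were labelled female and replicate 3 had Y-linked counts as low as theirs, while all controls were labelled male. Why fragment length moved with genotype, and with sex among deficient mice, was not tested.

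**Figure D4:**
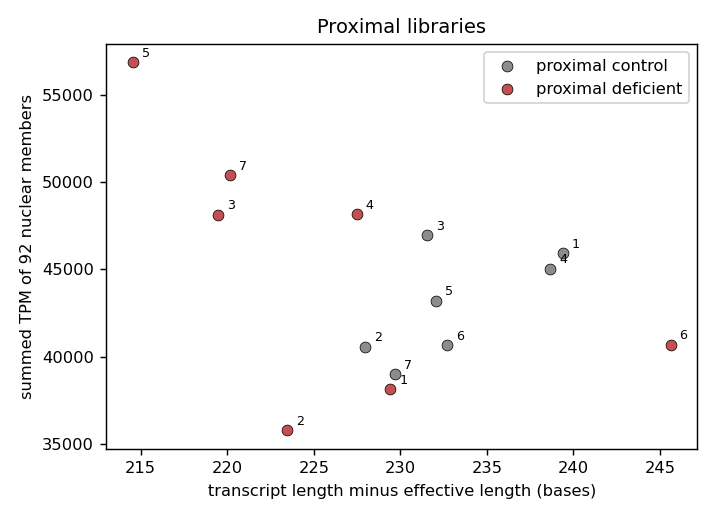
Summed TPM of the 92 nuclear members (y axis, not starting at 0) against transcript length minus effective length (x axis, bases) in the 14 proximal libraries, with replicate numbers. Deficient replicates 3, 4, 5 and 7 lie to the upper left, deficient replicate 2 lies low at the left, and the 7 controls lie between 228.0 and 239.4 bases.

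mt-Nd4, a proton-pumping subunit of complex I (ENSMUSG00000064363.1, M:10167-11544), was the only mitochondrial member called lower in the proximal colon. Its lowest, median and highest counts were 2985, 3434 and 3719 CPM in controls and 2273, 2779 and 3034 CPM in deficient libraries. The groups touched only where deficient replicate 3, at 3034 CPM, passed control replicate 2. The log2 fold change was -0.32 (SE 0.077, adjusted p = 0.0116), and it was -0.34 without deficient replicate 3 and -0.32 without control replicate 6, both calls kept. The call was lost among mice of at most 13 months (-0.32, adjusted p = 0.0730) and with fragment length as a covariate (-0.26, adjusted p = 0.0753). It was also lost with no filter on low counts (-0.34, adjusted p = 0.0508). Of the 13 mitochondrial members, 8 had an unadjusted p under 0.05, beside 3850 of 16787 genes, and 3 had one with fragment length as a covariate. Summed mitochondrial TPM was 111960 to 129750 in proximal controls and 89129 to 111750 in deficient libraries. The share of all counts that these members took was 5.59% to 7.31% and 5.12% to 5.95%, so on this scale the groups overlapped. In the distal colon mt-Nd4 had a similar log2 fold change of -0.34 without a call (SE 0.17, adjusted p = 0.321). Its difference between segments was -0.005 (adjusted p = 0.996), so a fall particular to the proximal colon is not shown.

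The other mitochondrial members lay on the same side of 0 in the proximal colon, apart from mt-Atp8 at 0.02, without passing the test. Among the complex I subunits, the log2 fold changes were -0.26 for mt-Nd1, -0.23 for mt-Nd2, -0.29 for mt-Nd3, -0.33 for mt-Nd4l, -0.32 for mt-Nd5 (adjusted p = 0.0754) and -0.17 for mt-Nd6. mt-Cytb, the core of complex III, was at 3519, 4129 and 4289 CPM (lowest, median and highest) in controls and 2919, 3339 and 4066 CPM in deficient libraries (log2 -0.22, SE 0.080). The ranges overlapped, with the deficient median below the lowest control. The core subunits of complex IV gave -0.23 (mt-Co1), -0.20 (mt-Co2) and -0.29 (mt-Co3), and mt-Atp6, the proton channel subunit of ATP synthase, gave -0.19. Distal values were -0.19 for mt-Co2, -0.34 for mt-Atp8, -0.36 for mt-Co1, -0.45 for mt-Nd6, -0.48 for mt-Nd3 and -0.49 for mt-Atp6 (adjusted p = 0.0968). The distal value of mt-Atp8 is uncertain. Its distal counts were far below those of the other mitochondrial members, and its effective length there was 13.6 bases. With the copy Gm28661 added, the distal value of mt-Co2 was -0.38 (adjusted p = 0.233). mt-Nd6, the only mitochondrial member encoded on the minus strand, thus lay on the same side of 0 as most of those on the plus strand.

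Nearly all members lay slightly below 0 in the distal colon, deficient minus control, but only Ndufa4, which rose, passed the test. Of the 92 nuclear members 1 was called (1.09%), against 6.07% of the 16041 genes tested, and it was higher (2.70% of all genes were). For 0 members did every deficient library lie above every control library, beside 1.37% of all genes, and for 0 did every one lie below, beside 2.08%. By edgeR 0 nuclear members were called lower, beside 3.37% of all genes, although 85 of 92 (92.4%) lay below 0, beside 48.3% of all genes. Their median log2 fold change was -0.24, beside 0.01 for all genes, and 42 of 92 had an unadjusted p under 0.05, as did 2944 of the 16041 genes. Among mice of at most 13 months the median was -0.14 and 6 of 92 had such a p, and with control mice without Cre 17 of 92 had. Without control replicate 6 the median was -0.21 and 31 of 92 had such a p, beside 2767 of 16226 genes. Without deficient replicate 3 it was -0.26 and 41 of 92 had, beside 2745 of 15915 genes. DESeq2 called 7 nuclear members, beside 1504 of the 16041 genes: Ndufv3, Ndufaf7, Ndufc2, Uqcr10, Cox7b and Atp5a1 lower and Ndufa4 higher. Of the 13 mitochondrial members 0 were called by edgeR, 6 had an unadjusted p under 0.05, DESeq2 called 2 (mt-Atp6 and mt-Co3), and all 13 lay below 0 with a median of -0.36.

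Every electron transport complex shared this direction in the distal colon. All 36 complex I subunits lay below 0, with a median of -0.23, and so did all 16 ATP synthase genes, with a median of -0.26. Complex II had a median of -0.28, complex III of -0.25 and the ubiquitous complex IV subunits of -0.28, with Ndufa4 the only complex IV subunit of the 11 above 0. The assembly factors were nearer to 0, at -0.07 for the Ndufaf and 0.03 for the Sdhaf genes. Sdhaf1, an assembly factor of complex II, was at 12.0, 14.3 and 19.0 CPM (lowest, median and highest) in distal controls and 13.4, 18.8 and 24.7 CPM in deficient libraries, which overlapped (log2 0.39, adjusted p = 0.129). Of its 31-base words, 69.9% also occur in transcripts of 6 other genes, so its estimate is uncertain.

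Complex II, which passes electrons from succinate and is also an enzyme of the tricarboxylic acid cycle, had no called member in either genotype comparison by edgeR. Sdhc, a membrane anchor, came nearest in the distal colon, at 194.7, 239.3 and 279.3 CPM in controls and 138.7, 194.3 and 219.1 CPM in deficient libraries (log2 -0.33, SE 0.11, adjusted p = 0.104). Only the upper deficient libraries reached the control range. Sdhb, the iron-sulfur subunit, gave -0.34 (adjusted p = 0.161), the other anchor gene Sdhd -0.22 (adjusted p = 0.260) and Sdha, the flavoprotein, -0.17 (adjusted p = 0.503). In the proximal colon the 4 genes ranged from -0.11 (Sdha) to 0.07 (Sdhb). At an unadjusted p under 0.05 there were 0 of 4 proximally, beside 3850 of 16787 genes, and 3 of 4 distally, beside 2944 of 16041. The c-subunit genes of ATP synthase that carry most of the message, Atp5g3 and Atp5g1, gave 0.14 and -0.05 proximally and -0.27 and -0.21 distally. The ubiquitous isoforms Cox7a2 and Cox6b1 gave 0.11 and 0.16 proximally and -0.33 and -0.40 distally, with no call.

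The nuclear member nearest to a lower call was Uqcr10, a small subunit of complex III (ENSMUSG00000059534.8, chr11:4701973-4704342). Its counts were 98.3, 124.2 and 138.7 CPM in distal controls and 72.6, 96.8 and 109.1 CPM in deficient libraries, with an overlap between 98.3 and 109.1 CPM. The log2 fold change was -0.36 (SE 0.10, adjusted p = 0.0587). Among mitochondrial members mt-Co3, a core subunit of complex IV, was nearest, at 5915, 6982 and 8717 CPM in controls and 4063, 4984 and 5958 CPM in deficient libraries (log2 -0.50, SE 0.16, adjusted p = 0.0795). The 2 groups overlapped only at the edge. Without distal control replicate 3, 9 nuclear members were called, 8 of them lower, beside 877 of 16128 genes called, 489 of them lower. Summed over the nuclear members, distal controls gave 39237 to 47442 TPM and deficient libraries 34790 to 42019 TPM, which overlapped. Mitochondrial sums were 66148 to 92193 and 47372 to 73091 TPM.

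Markers of other cells were read beside the distal values. All 10 smooth muscle markers lay below 0 (median log2 -0.67, 0 of 10 called), with summed levels of 1188 to 3702 CPM in controls and 511.1 to 1884 CPM in deficient libraries. The 10 epithelial markers summed to 19090 to 29460 CPM in controls and 14750 to 25370 CPM in deficient libraries, with 0 of 10 called. Of these, 9 lay below 0 (median log2 -0.08). Epithelial markers such as Epcam were well expressed in all 4 groups. The leukocyte marker Itgam was called higher in both segments (log2 0.51 and 1.13), the 1 call among the 10 leukocyte markers in each. This share of 10.0% stood beside 11.7% of all genes proximally and 6.07% distally. Of these 10 markers, 5 lay below 0 proximally (median log2 -0.05), and all 10 lay above 0 distally (median 0.44). Among 7 fibroblast markers Pdgfra and Pdgfrb were called higher proximally (0.54 and 0.44), a share of 28.6% beside 11.7% of all genes, and 0 were called distally. Enteric neuron and glia markers had 0 of 10 calls in either segment, endothelial markers 0 of 5, and adipocyte markers 0 of 7 proximally and 0 of 5 distally. Their distal medians were -0.63, -0.06 and -1.54. Summed adipocyte markers ranged from 38.9 to 446.2 CPM in distal controls and from 9.90 to 143.4 CPM in deficient libraries, and Ucp1, the defining gene of brown fat, reached at most 0.0589 CPM in any library. The part of these cells in the members' values was not tested.

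The genotype effects did not pass a test of their difference between segments for any member. In a model of 26 libraries with mouse as a block, edgeR called 0 of 105 members for genotype by segment, beside 1.01% of 17595 genes, and DESeq2 also called 0. Sdhaf1 was the 1 member with an unadjusted p under 0.05 (log2 0.33, adjusted p = 0.308). Of all genes 0.432% were called higher. The nuclear median of the difference, distal effect minus proximal effect, was -0.22, with 82 of 92 below 0, beside 47.7% of all genes, and the mitochondrial median was -0.08. Leaving out 1 mouse moved the nuclear median between -0.34 (without control replicate 3) and -0.10 (without deficient replicate 5, 72 of 92 below 0). Without deficient replicate 3 the mitochondrial median was 0.00, and 7 of 13 in place of 12 of 13 were below 0. For Ndufa4 the difference was -0.12 (SE 0.24, adjusted p = 0.892). For Cox7a1 it was -0.45 (SE 0.36, adjusted p = 0.680). The proximal rise and the distal value of Cox7a1 are therefore not shown to differ.

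Between segments of the same mice, the members called were a smaller share than among all genes, by a margin that depended on 1 control mouse. In control mice 7 nuclear members were higher and 7 lower in the distal colon (15.2%), and 0 mitochondrial members were higher and 4 lower (30.8%), against 43.8% of 16507 genes. Without control replicate 3, 36 nuclear members were called, 31 higher and 5 lower, beside 7311 of 16583 genes. In deficient mice 1 nuclear member was higher and 10 lower (12.0%), and 5 mitochondrial members were lower (38.5%), against 45.1% of 16514 genes. In control mice 41 of 92 nuclear members lay below 0, beside 54.0% of all genes, and in deficient mice 70 of 92, beside 52.2%. The amount subtracted to give the effective length of long transcripts was 249 bases in all 13 distal libraries, whereas it varied among the proximal ones. The estimates of the segments were thus made with different fragment length settings, which cannot be told apart from the segment.

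Cox6b2, the complex IV isoform known from testis (ENSMUSG00000051811.14, chr7:4751792-4753094), was lower in the distal colon of both genotypes. Its lowest, median and highest counts were 1.98, 2.09 and 2.30 CPM in controls proximally and 0.689, 1.08 and 1.37 CPM distally, which did not overlap. The log2 fold change, distal minus proximal, was -1.02 in controls (SE 0.20, adjusted p = 0.00360) and -1.02 in deficient mice (SE 0.20, adjusted p = 0.00262). Ndufaf6, an assembly factor of complex I, was also lower in both: control counts were 7.35, 9.76 and 11.6 CPM proximally and 4.33, 4.75 and 6.17 CPM distally, again without overlap (log2 -0.89, adjusted p = 0.00188). In deficient mice its log2 fold change was -0.70 (adjusted p = 0.00719). The calls of Cox6b2 and Ndufaf6 held in all 13 alternatives for control and all 14 for deficient mice. Uqcr10 fell by 0.49 on the log2 scale in controls (adjusted p = 0.0142) and by 0.73 in deficient mice (adjusted p = 0.00658). The other nuclear members called lower in both were Ndufs7, Ndufa11 and Dmac2, by 0.28 to 0.58 on the log2 scale. In deficient mice Ndufab1, Ndufaf8, Uqcr11 and Uqcrq were also called lower, by 0.42 to 0.51. Ndufab1 lost its call with its pseudogene copy added (-0.30, adjusted p = 0.119). Uqcrq lost it in 7 of 14 alternatives, in 1 of them with the sign turned, and Ndufaf8 in 5 of 14, at -0.08 with an offset for transcript length. In controls Sdhaf1 fell by 0.48 (adjusted p = 0.00721), whereas Cox6c, Uqcrb, Sdhc and Atp5j rose by 0.35 to 0.51 on the log2 scale, and Cox7a1 by 0.60 (SE 0.20, adjusted p = 0.0373). The Cox7a1 call was lost without control replicate 1, 2, 4, 5 or 6, with adjusted p-values of up to 0.110. Cox6c, Uqcrb and Sdhc lost their calls without each of the same mice (adjusted p up to 0.114), and Sdhc also with no filter.

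Several of the largest segment differences belonged to members that share their sequence with pseudogenes. Of the 105 members, 8 had more than 50% of their 31-base words in other genes' transcripts, 7 of them mitochondrially encoded and the other Sdhaf1. Atp5g2, mt-Co2 and their copies show this. The 90-base stretches below are from GRCm38 and run 5′ to 3′ on the gene's strand. Capitals mark bases that differ from Atp5g2, which with Atp5g1 and Atp5g3 encodes the same mature c subunit of the ATP synthase rotor. The stretches lie at chr15:102663017-102663106 for Atp5g2, chr7:23946795-23946884 for its copy Gm10175, chr11:96073107-96073196 for Atp5g1 and chr2:73908596-73908685 for Atp5g3, all on the minus strand.
Atp5g2: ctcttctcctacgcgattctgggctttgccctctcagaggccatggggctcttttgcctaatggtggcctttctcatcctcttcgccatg
Gm10175: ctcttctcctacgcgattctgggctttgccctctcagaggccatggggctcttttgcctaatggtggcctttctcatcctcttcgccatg
Atp5g1: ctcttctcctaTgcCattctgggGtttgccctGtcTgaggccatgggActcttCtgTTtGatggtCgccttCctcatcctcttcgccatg
Atp5g3: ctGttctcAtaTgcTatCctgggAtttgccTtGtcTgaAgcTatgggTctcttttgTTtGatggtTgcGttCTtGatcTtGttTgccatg
The next pair is mt-Co2 (M:7113-7202, plus strand) and its nuclear copy Gm28661 (chr1:24615376-24615465, minus strand).
mt-Co2: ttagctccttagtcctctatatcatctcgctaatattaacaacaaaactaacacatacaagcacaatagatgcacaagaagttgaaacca
Gm28661: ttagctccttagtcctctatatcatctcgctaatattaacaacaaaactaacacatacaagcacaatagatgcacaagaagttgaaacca
Gm10175 and Gm28661 had 0 differences from their members over these stretches, while Atp5g1 had 12 and Atp5g3 23 differences from Atp5g2. The functional isoforms can thus be told apart by sequence here, whereas these copies cannot.

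Atp5g2 alone averaged 9.78 ± 2.32 CPM (SD, n = 7) in controls proximally and 54.4 ± 9.30 CPM (n = 6) distally, a log2 fold change of 2.501 (SE 0.16, adjusted p = 6.99e-06), while Gm10175 averaged 150.9 and 88.0 CPM. Their sum was 160.7 ± 17.5 and 142.4 ± 20.9 CPM, and with the copy added the log2 fold change turned to -0.18 (SE 0.10, adjusted p = 0.164). In deficient mice it went from 2.38 to -0.20 (adjusted p = 0.0981). In both segments the sum with Gm10175 exceeded Atp5g2 alone by far, so the isoform's own level is uncertain. mt-Co2, a core subunit of complex IV, averaged 7917 ± 1060 CPM in controls proximally and 2977 ± 778 CPM distally (log2 -1.45, SE 0.19, adjusted p = 0.000356). Gm28661 averaged 4.20 and 4070 CPM, and with it added the log2 fold change was -0.18 (adjusted p = 0.378). mt-Nd3 with Gm28438 went from -0.81 (adjusted p = 0.00119) to 0.00 (adjusted p = 0.999), and Ndufb4 with Ndufb4c from 0.61 (adjusted p = 0.00646) to 0.08 (adjusted p = 0.615). With copies added, 2 mitochondrial members were called in control and 2 in deficient mice, mt-Atp8 and mt-Nd4l in both.

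**Figure D5:**
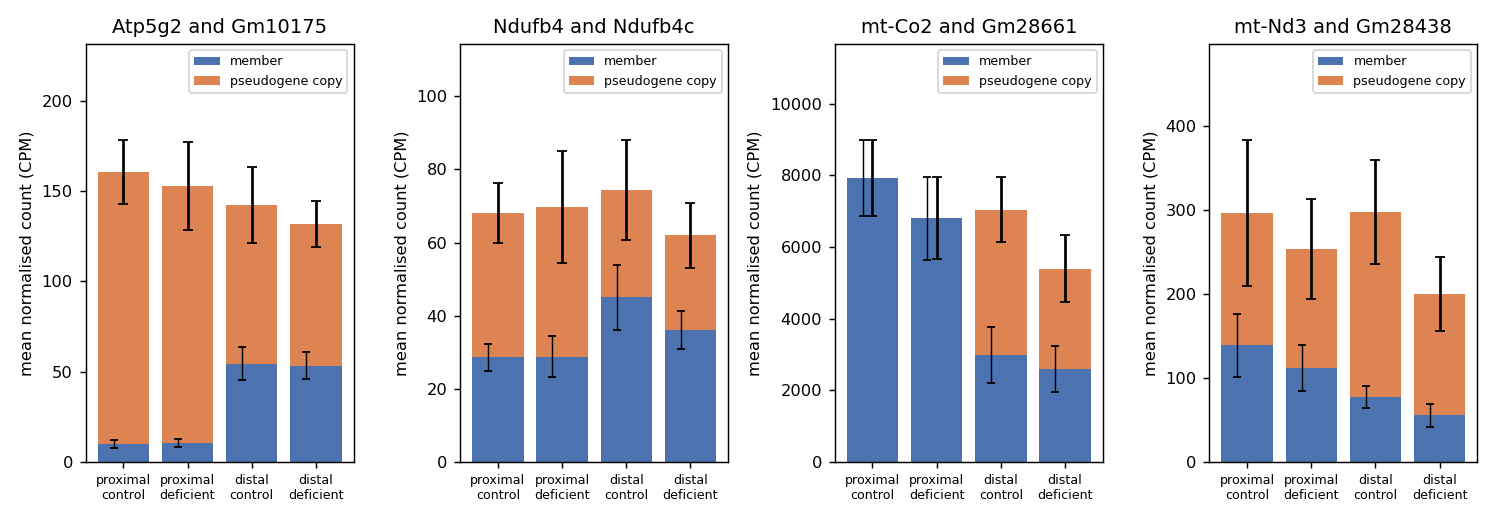
Mean normalised counts (y axis, CPM) of 4 members (blue) stacked with their pseudogene copies (orange) by segment and genotype (x axis); the thin error bar is the SD of the member, the thick one that of the sum. The member's part shifts between segments while the sums of controls stay close, as for Atp5g2 with Gm10175 at 160.7 and 142.4 CPM. In deficient mice all 4 sums were lower distally, as for mt-Co2 at 6808 and 5397 CPM and mt-Nd3 at 253.6 and 199.9 CPM (proximal and distal).

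mt-Atp8 and mt-Nd4l are short genes whose effective lengths differed between segments. mt-Atp8, a small subunit of ATP synthase (M:7766-7969), had 159.9 to 216.3 CPM in controls proximally and 0.845 to 1.46 CPM distally, without overlap (log2 -7.48, SE 0.17, adjusted p = 4.47e-08). Its mean effective length was 38.9 bases in proximal and 13.6 bases in distal controls, and it overlaps mt-Atp6 over 43 bases (M:7927-7969). With an offset for transcript length its log2 fold change was -5.998, and its call held in all 13 alternatives for control and all 14 for deficient mice. All of these reused the same estimated counts, so they cannot separate its level from the different fragment length settings of the segments. Its transcript has 204 bases, fewer than the 249 bases subtracted from long transcripts in distal libraries. mt-Atp6 had log2 fold changes of -0.25 in control and -0.55 in deficient mice. The cause of the mt-Atp8 difference was not tested. mt-Nd4l, a subunit of complex I, had 280.6 to 393.9 CPM in controls proximally and 107.1 to 246.3 CPM distally, again without overlap (log2 -0.98, SE 0.18, adjusted p = 0.00244). Its effective length was 93.0 and 51.6 bases, and with the offset its log2 fold change was -0.17 (adjusted p = 0.448).

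Genes that build or serve the complexes were read from lists beside the members. Of 39 other respiratory chain and assembly genes, 0 were higher and 1 lower in the proximal colon (2.56%, beside 11.7% of all genes). That gene was Cox10, which makes heme for complex IV, at 33.2 ± 4.36 CPM in controls and 22.4 ± 2.01 CPM in deficient libraries (log2 -0.55, adjusted p = 0.000305). In the distal colon 0 were higher and 4 of 38 lower (10.5%, beside 6.07% of all genes). Among those lower were Cox10 (log2 -0.52, adjusted p = 0.0145), Surf1, an assembly factor of complex IV (-0.40, adjusted p = 0.0294), and Acad9, an assembly factor of complex I (-0.26, adjusted p = 0.0423). The distal median of the list was -0.14, with 33 of 38 below 0. Of 16 regulators of mitochondrial gene expression tested, 1 was higher and 1 lower in the proximal colon (12.5%, beside 11.7% of all genes). The coactivator gene Ppargc1a rose from 19.6 ± 2.17 to 28.3 ± 3.32 CPM (log2 0.55, adjusted p = 0.000376), and the nuclear receptor gene Ppard fell by 0.48. Distally 0 regulators were higher and 1, Ppard, lower (log2 -0.46, adjusted p = 0.0493), a share of 6.25% beside 6.07% of all genes.

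Fuel pathways were read in the same way. Of 19 genes of the tricarboxylic acid cycle and pyruvate entry 0 passed proximally, and distally 0 were higher and 1 lower (5.26%, beside 6.07% of all genes). The lower one was Ogdh of the 2-oxoglutarate dehydrogenase complex (log2 -0.42, adjusted p = 0.0429), although all 19 lay below 0 there. Of 15 glycolysis genes, 4 (26.7%, beside 11.7% of all genes) passed in the proximal colon: 1 was higher, Eno1 (log2 0.34), and 3 lower, among them the phosphofructokinase gene Pfkl (-0.57) and the hexokinase gene Hk2 (-0.64). Distally only Pfkl passed (-0.58), a share of 6.67% beside 6.07% of all genes. Among 27 genes of mitochondrial DNA maintenance and transcription 1 was lower in each segment (3.7%, beside 11.7% of all genes called proximally and 6.07% distally). These were the tRNA-processing enzyme gene Elac2 proximally (-0.33) and Mterf2 distally (-0.73, adjusted p = 0.00570). Of 22 carriers and structural genes 0 passed proximally and the mitofusin gene Mfn1 was lower distally (-0.46, adjusted p = 0.00465), a share of 4.55%. Of 78 mitochondrial ribosomal protein genes 0 were called in either segment, with medians of 0.02 proximally and -0.02 distally, and the same held for 80 cytosolic ribosomal protein genes (medians 0.04 and 0.04). Among 11 immediate early and heat shock genes, read as a sign of handling, Atf3, Jun and Fosb were higher proximally (log2 0.61, 0.28 and 0.92). This share was 27.3%, beside 11.7% of all genes, and 0 passed distally. Their part in the members' values was not tested.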

How the data were processed

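Polyadenylated RNA of 27 libraries was sequenced. Per the submitters' processing notes the tools were bcl2fastq 2.20.0.422, cutadapt 2.5, kallisto 0.46.2 and edgeR, with GRCm38. The authors deposited estimated counts and TPM per transcript from kallisto, 1 table per library, which carry an effective length beside them, and 1 matrix of log2 values per segment, used only for membership, of unstated scaling. Transcript estimated counts were summed per gene and rounded (library totals 18472867 to 56744113). CPM values carry a single TMM scaling over all libraries.

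Each comparison was fitted over all genes with edgeR 4.0.16 (R 4.3.3, filterByExpr, TMM, quasi-likelihood test, Benjamini-Hochberg threshold 0.05). Mouse was a block between segments, since the labels give both segments the same mouse number. Deviations of same-mouse libraries correlated at -0.054 to 0.466. DESeq2 1.42.0, scalings, filters, offsets, blocks and left-out mice were alternatives, and the scripts were tested on simulated data. Members, gene lists, markers and the rule for named genes (all members called for genotype, the 6 highest and 6 lowest called between segments, all mitochondrial members, complex II, c-subunit genes, isoforms and the highest TPM of each complex) were chosen with earlier results of these data known.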

Additional observations from a re-analysis of the deposited data

Results flagged for a closer look

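In 3 of 172 tests of a member in a group, 1 library stood apart from the rest of its group by Dixon's criterion, and chance alone meets this criterion in about 1 in 20 groups. Cox6b2, the testis isoform of a complex IV subunit, was at 3.75 CPM in proximal deficient replicate 5, and the other 6 libraries ranged from 1.90 to 2.59 CPM. That library also had the highest Cox7a1 count and the highest summed nuclear TPM of all 27. mt-Nd1, a core subunit of complex I, was at 4050 CPM in proximal deficient replicate 6 (the others ranged from 2799 to 3316 CPM). It was at 4680 CPM in distal control replicate 4, where the others ranged from 2880 to 3439 CPM.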

How the results depend on the processing

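Values here are counts of members called unless stated. In the proximal colon the 2 nuclear calls became 1 with no filter, with a transcript-length offset, with a replicate block and with fragment length as a covariate. They became 3 with DESeq2, and stayed at 2 with control mice without Cre, over mice labelled male and over mice of at most 13 months, there with Ndufaf7 lower in place of Cox7a1. The 1 mitochondrial call there became 3 with DESeq2, 2 with the replicate block, and 0 with no filter, among mice of at most 13 months and with the covariate. In the distal colon the 1 nuclear call became 7 with DESeq2, 2 with the offset and 0 with the replicate block, and the 0 mitochondrial calls became 2 with DESeq2. DESeq2 called 1504 genes there (973 by edgeR) and 528 for genotype by segment (178 by edgeR). Between segments of control mice the 14 nuclear calls became 23 with the offset and the 4 mitochondrial calls became 2 with pseudogene copies added. In deficient mice the 11 nuclear calls became 17 with no replicate block and the 5 mitochondrial calls became 2 with copies added. With copies added, signs turned for Atp5g2 (-0.18 in control and -0.20 in deficient mice) and mt-Nd3 (0.0003 in control mice). In proximal and distal controls the copy Gm10175 of Atp5g2 averaged 150.9 and 88.0 CPM, and the copy Gm28438 of mt-Nd3 157.8 and 220.5 CPM. The sign also turned for Uqcrq in deficient mice with the offset (0.26). The cause of these changes was not tested.

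Leaving out 1 replicate at a time gave 1 to 2 nuclear and 1 to 2 mitochondrial calls proximally, 1 to 9 nuclear calls distally (9 without control replicate 3), and 102 to 225 genes for genotype by segment. Between segments it gave 7 to 36 nuclear calls in control mice (36 without control replicate 3) and 5 to 17 in deficient mice. Ndufa4 was called in all 25 proximal alternatives and in 22 of 23 distal ones, Cox7a1 in 9 of 25 and mt-Nd4 in 22 of 25 proximal ones. Replicate numbers did not pair control with deficient mice: correlations of same-numbered deviations were -0.162 to 0.267 and replicate 2 alone correlated best with its own number. With the replicate block 1696 genes were called proximally (1962 without) and 684 distally (973 without).

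How many reads distinguish duplicated members from their copies was not tested. Sex, age and genotype overlap only in part. Deficient replicate 3, whose Y-linked counts go against its sex label, is counted as labelled. Control replicate 6, whose Foxa1 counts were at the deficient level, is counted as a control.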
